A study of Mus musculus with 8 samples.

Results

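*Dnase1* and 7 other genes of secreted or lysosomal nucleases were examined in whole-kidney RNA-Seq of control and SIK mutant mice. The 8 genes are *Dnase1*, *Dnase1l1*, *Dnase1l3*, *Dnase2a*, *Rnase4*, *Ang*, *Rnaset2a* and *Rnaset2b*, out of 55401 genes in the expression files. They were picked with their values in these kidneys in view, so the genotype difference of each is a description and carries no test. Each group held kidneys from 4 mice. Controls carried the genotype SIK1f/f;SIK2f/f,SIK3f/f, floxed alleles of the 3 salt-inducible kinase genes without Cre recombinase. Mutants carried the same floxed alleles and Six2-Cre, which acts in nephron progenitors and the epithelial cells that descend from them, while blood and stromal cells of the same kidney keep the kinases. The labels give both *Sik1* alleles as floxed in mutants and the study's text describes mice with 1 floxed *Sik1* allele, so this detail is uncertain for these kidneys and the group is called SIK mutant. The labels give no age, sex or strain.

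DNase I is a secreted endonuclease that cuts double-stranded DNA outside cells and is made by exocrine glands and by kidney tubules. DNase1L3 degrades DNA still packed in chromatin and comes mainly from macrophages and dendritic cells, DNase II works at acid pH in lysosomes, and RNase 4 and angiogenin are small secreted RNases of the pancreatic RNase family. RNase T2 is an acid RNase of lysosomes that is also secreted, and its gene is duplicated in the mouse.

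The sequences around the annotated starts of the genes are described first. RefSeq promoter windows, 250 bases before to 50 bases after an annotated start in GRCm38.p6, were found for 7 of the 8 genes, the exception being *Dnase1l3*. The window of *Dnase1* is shown because its gene differed most between groups, and it lies on the plus strand at chr16:4036786-4037085, the first of 2 windows that RefSeq lists for the gene. Capitals mark the only matches to the 4 motifs searched on both strands.
Dnase1: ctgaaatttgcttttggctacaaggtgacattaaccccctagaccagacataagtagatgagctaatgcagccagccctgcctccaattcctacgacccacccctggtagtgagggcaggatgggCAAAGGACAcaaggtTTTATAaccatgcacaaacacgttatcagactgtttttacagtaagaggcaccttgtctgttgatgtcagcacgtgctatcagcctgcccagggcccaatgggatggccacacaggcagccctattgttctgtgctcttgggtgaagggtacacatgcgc

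The first run of capitals matches the letters CAAAGNNCA, as read by HNF4 factors of the tubule, and begins at -125 from the start. The second run, at -110, is the reverse complement of the TATA-box letters TATAAA, and the runs do not overlap. From the second annotated start, whose window is chr16:4036895-4037194, the same runs begin at -234 and -219. Over 32817 RefSeq windows of the same length, CAAAGNNCA was present in 6.36% and TATAAA in 13.6%. The cAMP response element TGACGTCA (1.79% of windows) and its half-site TGACG (20.8%, contained in the full element) had no match in any window of the 7 genes. These are matches of letters only.

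*Rnase4* and *Ang* share a window at chr14:51090827-51091126 on the plus strand, shown because both genes list the same start there, and none of the 4 motifs matched in it.
Rnase4 and Ang: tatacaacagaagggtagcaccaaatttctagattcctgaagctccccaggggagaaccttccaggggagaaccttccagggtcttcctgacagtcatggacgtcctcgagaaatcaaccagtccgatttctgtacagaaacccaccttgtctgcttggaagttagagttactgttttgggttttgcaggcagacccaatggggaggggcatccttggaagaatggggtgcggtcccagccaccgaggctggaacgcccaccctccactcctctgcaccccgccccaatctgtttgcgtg

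The start regions of *Rnaset2b* and *Rnaset2a* are near-identical copies. Of 255 bases aligned without gaps, 254 were equal. The 61 bases around the single difference, in capitals, are shown as the only place where the aligned copies differ. The *Rnaset2b* stretch lies at chr17:6978726-6978786 on the plus strand and the *Rnaset2a* stretch at chr17:8147906-8147966 on the minus strand.
Rnaset2b: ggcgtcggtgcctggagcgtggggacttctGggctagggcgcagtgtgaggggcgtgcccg
Rnaset2a: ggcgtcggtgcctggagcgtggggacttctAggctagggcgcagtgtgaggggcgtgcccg

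Depth was 10179648 to 10925100 expected counts per kidney, and 3 counts, taken as the floor, equalled 0.275 to 0.295 CPM (counts scaled to the library total, with TMM factors wherever a level is given). As a check of the labels, *Sik3* was 62.9 ± 3.79 CPM (SD, n = 4) in controls and 39.5 ± 4.10 CPM in mutants without overlap, *Sik2* was 9.14 ± 0.841 and 6.72 ± 2.07 CPM with overlap, and *Sik1* was higher in mutants, at 50.6 ± 4.85 against 40.8 ± 2.84 CPM. All kidneys expressed the proximal tubule markers, with a summed level of 8425 to 11148 CPM in controls and 7981 to 9475 CPM in mutants. In this sum controls 1 and 2, at 10997 and 11148 CPM, were above every mutant. Controls 3 and 4, at 8425 and 8846 CPM, were within the mutant range. Controls 3 and 4 stood apart: the 4 Y-linked genes averaged 0 and 0.0438 CPM in them and 19.2 to 23.7 CPM in the other 6 kidneys, and the proximal tubule gene *Slc7a13* was 2.29 and 2.28 CPM in them and 363 to 652 CPM elsewhere. By the Y-linked genes controls 3 and 4 read as female, and the other 6 kidneys, which include every mutant, as male. Sex is thus partly confounded with genotype in comparisons over all kidneys. The log2 differences are therefore also given over the 6 kidneys with Y-linked reads, which leaves 2 controls. In edgeR's quasi-likelihood test 0 of 14326 genes passed an FDR of 0.05 (0%), 911 (6.36%) had an unadjusted p under 0.05, and DESeq2 called 67 of 14321 genes (0.468%). These p-values measure the spread between these mice.

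Measured per length as TPM (abundance scaled to transcript length and library total), *Dnase1* had the highest level of the 8 genes in controls, at 559 ± 165 TPM (SD, n = 4). *Rnaset2b* followed at 186 ± 27.6 TPM, then *Rnaset2a* at 70.5 ± 13.1 and *Rnase4* at 43.6 ± 9.51 TPM, whose ranges overlapped. *Ang* at 10.01 ± 1.48, *Dnase2a* at 9.51 ± 2.52 and *Dnase1l1* at 7.29 ± 2.52 TPM could not be ordered, since neighbours among them overlapped, and *Dnase1l3* was at 0.278 ± 0.0640 TPM. In mutants *Dnase1* ranked below *Rnaset2b*, and *Rnase4* and *Rnaset2a* again overlapped. All 8 genes passed the filter on low counts.

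**Figure D1:**
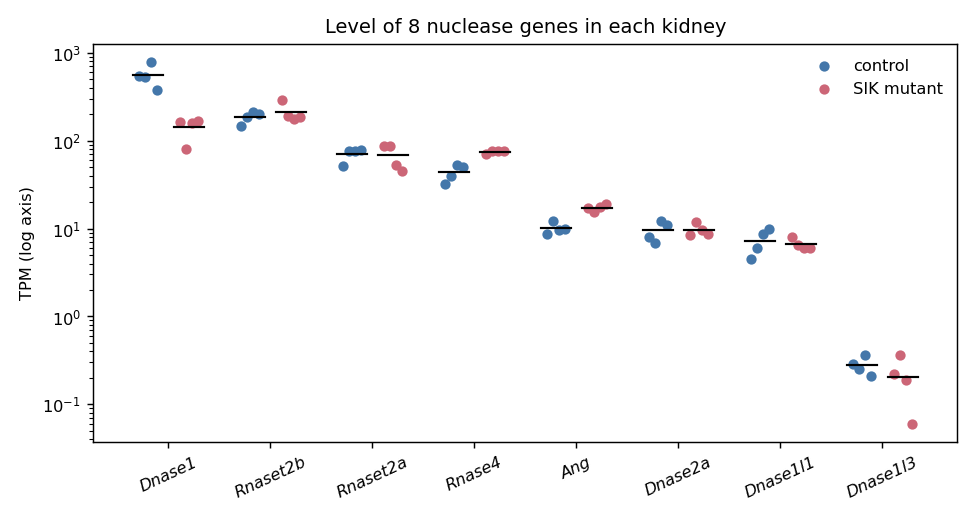
Level of the 8 nuclease genes in each kidney in TPM on a log axis, with 4 control kidneys (blue) and 4 SIK mutant kidneys (red) per gene and the group mean as a black line. *Dnase1* separates downward in mutants (79.8 to 166 TPM against 380 to 781), *Rnase4* and *Ang* separate upward, and the groups of the other 5 genes overlap.

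In 3 of the 8 genes no mutant kidney overlapped a control kidney in CPM. *Dnase1* was lower in all mutants, and *Rnase4* and *Ang* were higher. Over all 14326 genes tested, 4.03% did not overlap, 2.39% lower and 1.65% higher in mutants. Since the genes were picked on this contrast, nothing is read from that count.

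*Dnase1* (chr16:4036942-4040024, plus strand) was the gene with the widest separation. The control kidneys had 594, 553, 703 and 351 CPM in replicates 1 to 4, from 4006 to 7986 counts each. The mutant kidneys had 145, 68.6, 145 and 169 CPM, from 769 to 1761 counts each. The lowest control, control 4, was still above the highest mutant, and mutant 2 was the lowest of all kidneys. The means were 550 ± 147 CPM in controls and 132 ± 43.8 CPM in mutants (SD, n = 4 each), a log2 difference of -2.06 (SE 0.293), or 4.17-fold lower. Without controls 3 and 4 the log2 difference was -2.11 (SE 0.281). Leaving out 1 kidney at a time gave -2.23 to -1.85.

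*Dnase1* also varied among kidneys of the same genotype. Its coefficient of variation was 26.8% in controls and 33.2% in mutants, and its fitted biological variation was above that of 87.6% of the genes tested. Its group difference is set among genes of like abundance as a description only, since *Dnase1* was picked on this contrast. Among 690 genes within 2-fold of its mean CPM, 4 had a larger absolute log2 difference, 1 of them also lower in mutants, and the median absolute log2 difference was 0.0989. In the order of all genes by TPM, *Dnase1* ranked 101 to 249 in the control kidneys and 607 to 1258 in the mutant kidneys.

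Levels of single *Dnase1* transcripts were not analysed here. The abundance-weighted transcript length of the gene was 1210 ± 8.44 bases in controls and 1209 ± 15.7 bases in mutants, and the posterior SD of its count, the uncertainty from reads that match several genes, was 0 in every kidney. In whole-kidney RNA, fewer cells that make a transcript and less of it per cell cannot be told apart.

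**Figure D2:**
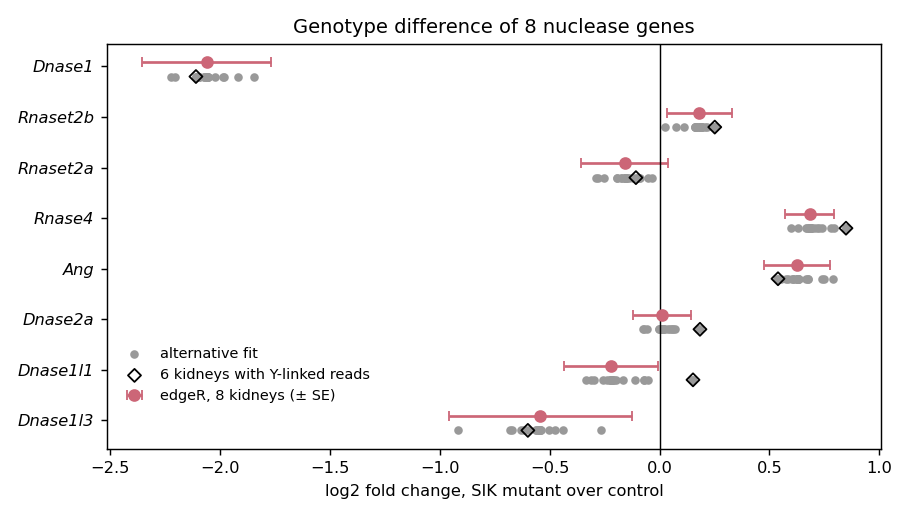
Log2 fold change of SIK mutant over control for the 8 genes, with edgeR on 8 kidneys (red, ± SE), alternative fits (grey) and the fit on the 6 kidneys with Y-linked reads (diamonds). *Dnase1* stays between -2.23 and -1.85 in all fits shown and *Rnase4* and *Ang* stay above 0, while *Dnase1l1* and *Dnase2a* lie on both sides of 0.

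The genes beside *Dnase1* give a reference at the same locus. *Trap1*, a mitochondrial chaperone gene that ends 54 bases inside *Dnase1* on the opposite strand, was at 222 ± 15.02 CPM in controls and 209 ± 13.3 CPM in mutants (log2 difference -0.09, SE 0.0900, and -0.16 over the 6 kidneys). *Slx4*, a scaffold of DNA repair nucleases and the nearest protein-coding gene on the other side, was at 24.7 ± 4.60 and 24.0 ± 3.86 CPM (log2 difference -0.05, SE 0.158, and 0.16 over the 6 kidneys). In both the groups overlapped. The count of *Trap1* relative to *Dnase1* was 0.426 ± 0.117 in controls and 1.78 ± 0.821 in mutants, so that *Dnase1* had more reads than *Trap1* in every control and fewer in every mutant.

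*Gm15879*, an antisense gene (chr16:4032839-4037847, minus strand), overlaps 504 exonic bases at the start of *Dnase1*. It had 3.65, 3.95, 6.60 and 4.38 CPM in controls and 2.12, 2.85, 2.13 and 2.98 CPM in mutants, again without overlap. The log2 difference was -0.88 (SE 0.245), and -0.58 (SE 0.261) over the 6 kidneys with Y-linked reads. Whether counting used strand is not given in the sources used here, so reads of this pair cannot be assigned with certainty. Of the 200-base stretches in *Gm15879* transcripts, 37.1% also occur in *Dnase1* on the opposite strand, and the posterior SD of the *Gm15879* count was 0 in every kidney. Its count was 0.879 ± 0.281% of that of *Dnase1* in controls and 2.21 ± 1.31% in mutants.

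**Figure D3:**
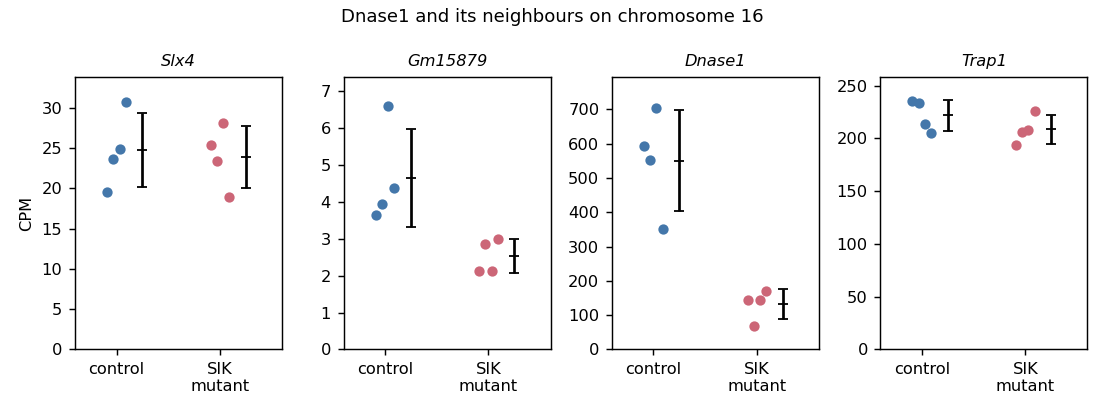
CPM of *Dnase1*, of the antisense gene *Gm15879* and of the flanking genes *Slx4* and *Trap1* in 4 control (blue) and 4 SIK mutant (red) kidneys, each panel on its own axis from 0, with mean ± SD in black. *Dnase1* and *Gm15879* separate by genotype, and both flanking genes overlap, with *Trap1* at 194 to 235 CPM in all kidneys.

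For each of the other DNases the control and mutant kidneys overlapped. *Dnase2a* (chr8:84908560-84922915, plus strand) encodes the lysosomal DNase II and was at 12.2, 10.3, 14.001 and 13.7 CPM in controls. Its mutant levels were 11.3, 14.4, 12.3 and 12.6 CPM, all within or close to the control range. The log2 difference was 0.01 (SE 0.132), and 0.18 (SE 0.151) over the 6 kidneys with Y-linked reads. *Mast1* overlaps 1616 exonic bases of *Dnase2a* on the opposite strand and had at most 15 counts in a kidney.

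*Dnase1l1* (chrX:74273217-74282337, minus strand) encodes a relative of DNase I best known from muscle. Controls 1 to 4 had 6.60, 7.01, 9.69 and 11.6 CPM, and the mutants had 8.65, 7.58, 5.71 and 8.08 CPM. The highest values were those of controls 3 and 4, the kidneys without Y-linked reads. The log2 difference was -0.22 (SE 0.213) over 8 kidneys and changed sign to 0.15 (SE 0.205) over the 6 kidneys with Y-linked reads.

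*Dnase1l3* (chr14:7964533-7994573, minus strand) was close to the floor. It had 14, 12, 17 and 10 counts in controls and 10, 16, 8 and 3 counts in mutants, 1.24 ± 0.280 and 0.843 ± 0.467 CPM. Mutant 4 was at the floor of 3 counts. The log2 difference of -0.54 had an SE of 0.416, and moved to -0.27 without mutant 4 and -0.92 without mutant 2, so a difference was not resolved at this depth. Without controls 3 and 4 it was -0.60 (SE 0.533).

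Together *Dnase2a*, *Dnase1l1* and *Dnase1l3* summed to 17.1 ± 4.84 TPM in controls and 16.5 ± 1.68 TPM in mutants. *Dnase1* made up 94.7% to 97.7% of the TPM of the 4 DNase genes in control kidneys. Its share was 90.7%, 81.0%, 91.0% and 91.9% in mutants 1 to 4. It thus remained the most abundant of the 4 in every kidney.

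*Rnase4* (chr14:51091077-51106151, plus strand) encodes RNase 4 and differed in the opposite direction to *Dnase1*. Controls had 43.5, 51.9, 59.4 and 57.8 CPM and mutants had 79.5, 82.0, 85.0 and 94.96 CPM. The highest control, control 3, was below the lowest mutant. The means were 53.1 ± 7.16 and 85.4 ± 6.78 CPM, a log2 difference of 0.68 (SE 0.110) or 1.61-fold. Over the 6 kidneys with Y-linked reads it was 0.85 (SE 0.116), since the controls with such reads averaged 47.7 CPM and those without 58.6 CPM.

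*Ang* (chr14:51091150-51102009, plus strand) encodes angiogenin and lies within the span of *Rnase4* on the same strand. It had 6.60, 9.19, 7.04 and 6.74 CPM in controls and 10.5, 10.3, 11.8 and 13.1 CPM in mutants, from 65 to 136 counts per kidney. The groups again did not overlap, with control 2 closest to the mutants. The log2 difference was 0.63 (SE 0.149) or 1.54-fold, and 0.54 (SE 0.190) over the 6 kidneys with Y-linked reads.

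The proportion of the 2 transcripts differed by less than its spread between kidneys. *Ang* over *Rnase4* in TPM was 0.238 ± 0.0592 in controls and 0.233 ± 0.0193 in mutants. The genes share 219 exonic bases next to the window shown above, and 7.75% of the 50-base stretches of *Rnase4* and 10.7% of those of *Ang* occur in both. All their counts were whole numbers with a posterior SD of 0, so no reads were divided between them by estimate.

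*Rnaset2a* (chr17:8115445-8148097, minus strand) and *Rnaset2b* (chr17:6970634-7011299, plus strand) are the copies of the RNase T2 gene. *Rnaset2a* had 89.2, 127, 114 and 116 CPM in controls and 126, 124, 76.6 and 73.0 CPM in mutants (log2 difference -0.16, SE 0.199). *Rnaset2b* had 87.2, 110, 108 and 106 CPM in controls and 152, 98.2, 101 and 113 CPM in mutants (log2 difference 0.18, SE 0.147). The groups overlapped for both, and leaving out a single mutant could remove much of either difference. *Rnaset2b* was at 0.02 without mutant 1. *Rnaset2a* was at -0.05 without mutant 3 and -0.04 without mutant 4. In the 6-kidney fit *Rnaset2a* was at -0.11 (SE 0.256) and *Rnaset2b* at 0.25 (SE 0.191).

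Reads of the Rnaset2 copies are divided by estimate. Of the 50-base stretches of *Rnaset2a* 77.2% also occur in *Rnaset2b*, and the posterior SD was 2.12% to 3.47% of the count, while it was 0 for the other 6 genes. Their sum, which does not depend on that division, was 214 ± 26.2 CPM in controls and 216 ± 45.7 CPM in mutants. *Rnaset2a* took 50.6% to 53.7% of the reads of the pair in controls, a narrow range. In mutants 1 to 4 it took 45.3%, 55.7%, 43.1% and 39.2%, on both sides of the control range, with a posterior SD of at most 1.56% of the pair in any kidney. By TPM *Rnaset2b* was the higher in every kidney, with *Rnaset2a* at 0.378 ± 0.0293 and 0.324 ± 0.0915 of it, since the weighted length of *Rnaset2b* was 775 ± 14.6 and 816 ± 28.5 bases against 1822 ± 8.80 and 1833 ± 3.54 bases for *Rnaset2a*.

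**Figure D4:**
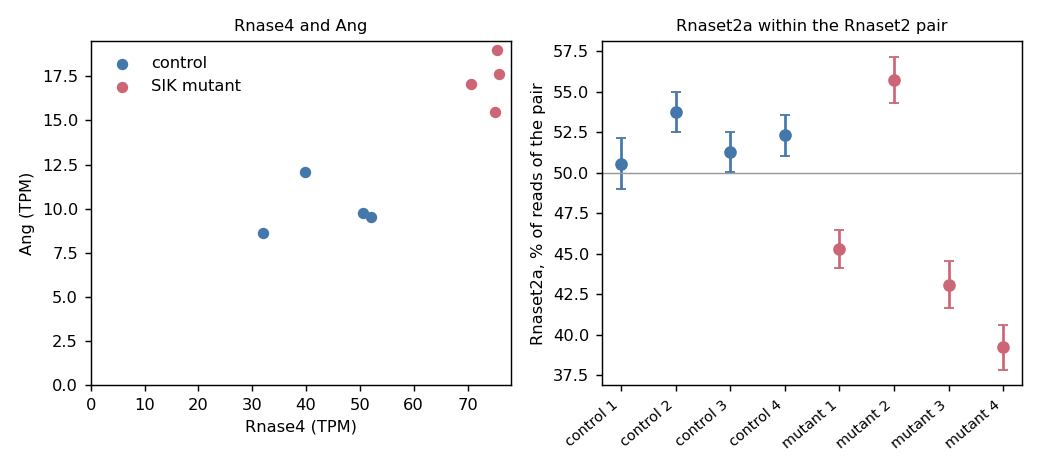
Left, TPM of *Ang* against *Rnase4* in 4 control (blue) and 4 SIK mutant (red) kidneys. Right, the percentage of the reads of the Rnaset2 pair given to *Rnaset2a* in each kidney, with the posterior SD as error bars and a grey line at equal division (axis not from 0): controls lie at 50.6% to 53.7% and mutants at 39.2% to 55.7%.

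A wider list of nuclease relatives, inhibitors, sensors and enzymes of nucleotide breakdown held 62 genes in the files, of which 36 passed the filter on low counts. By edgeR 0 of the 36 passed an FDR of 0.05 over all genes tested, and DESeq2 also called 0. At an unadjusted p under 0.05 there were 1 higher and 2 lower genes, against 2.76% higher and 3.59% lower among all genes tested. These 3 of the 36 were also the genes without overlap, against 4.03% of all genes tested. The median log2 difference of the list was -0.07 and that of all genes -0.0038. Above 0 were 13 of the 36, against 7049 of all 14326 genes tested.

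Among the inhibitors, *Actb*, whose monomeric actin binds DNase I and blocks it, was at 577 ± 38.0 CPM in controls and 694 ± 73.7 CPM in mutants (log2 difference 0.27, SE 0.107, edgeR FDR 0.754, and 0.28 over the 6 kidneys). *Actg1*, the other cytoplasmic actin, was at 981 ± 56.1 and 1031 ± 65.3 CPM (log2 difference 0.07, and 0.13 over the 6 kidneys). None of the 7 intracellular and lysosomal DNA nucleases tested had an unadjusted p under 0.05, and mitochondrial endonuclease G, *Endog*, the highest of them by mean TPM, was at 45.2 ± 6.05 and 42.3 ± 4.13 CPM (log2 difference -0.10, and -0.22 over the 6 kidneys). *Dnase1l2*, a close relative of *Dnase1*, was at 3.03 ± 1.23 and 2.58 ± 1.66 CPM (log2 difference -0.24, SE 0.460), and its difference changed sign to 0.33 over the 6 kidneys.

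Of 18 relatives of *Rnase4* and *Ang* in the pancreatic RNase family, only *Rnase1* passed the filter, and the others had at most 17 counts in any kidney. *Rnase1*, the pancreatic-type RNase, was at 2.74, 2.67, 3.87 and 4.20 CPM in controls and 1.94, 0.803, 2.32 and 1.92 CPM in mutants. Its log2 difference was -0.95 (SE 0.321, edgeR FDR 0.702), and -0.62 over the 6 kidneys with Y-linked reads. The 5 other RNases tested, *Rnaseh2c* the highest by mean TPM at 26.2 ± 2.39 and 24.3 ± 3.37 CPM (log2 difference -0.11, and -0.0082 over the 6 kidneys), had unadjusted p-values above 0.05. *Plxnb2*, a receptor of angiogenin, was at 239 ± 13.8 and 267 ± 35.2 CPM (log2 difference 0.16, edgeR FDR 0.863, and 0.11 over the 6 kidneys).

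None of the 6 sensors of nucleic acids tested had an unadjusted p under 0.05, and *Unc93b1*, which carries Toll-like receptors to endosomes, was at 18.4 ± 1.40 and 18.7 ± 2.79 CPM (log2 difference 0.02, and 0.12 over the 6 kidneys). Among the genes for nucleotide breakdown and uptake, *Slc29a2*, an equilibrative nucleoside transporter, was at 6.32 ± 0.858 and 4.22 ± 0.646 CPM (log2 difference -0.58, SE 0.176, edgeR FDR 0.601, and -0.40 over the 6 kidneys). *Alpl*, tissue-nonspecific alkaline phosphatase, was at 417 ± 80.8 and 333 ± 43.9 CPM (log2 difference -0.33, edgeR FDR 0.794, and -0.13 over the 6 kidneys). *Slc29a1*, the transporter of this kind with the highest mean TPM, was at 37.9 ± 8.15 and 36.7 ± 5.33 CPM, with a log2 difference of -0.05 that changed sign to 0.21 over the 6 kidneys. The other nucleoside transporters and ectonucleotidases tested had unadjusted p-values above 0.05.

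**Figure D5:**
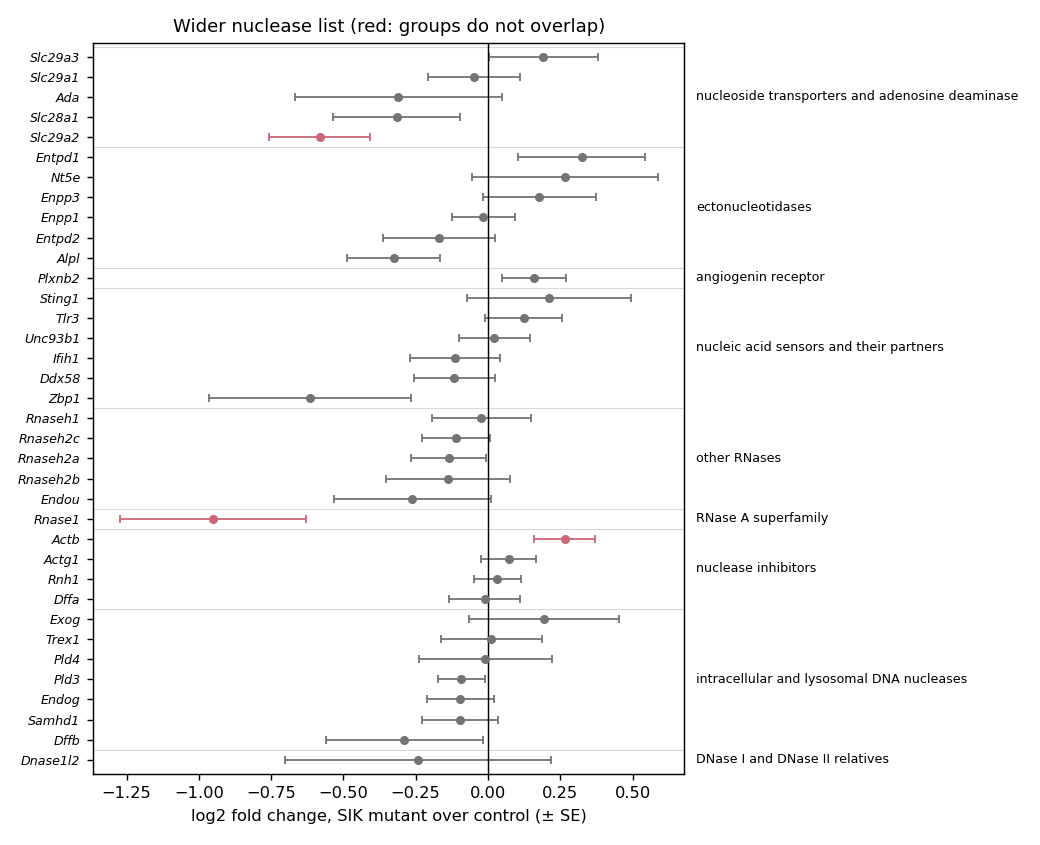
Log2 fold change of SIK mutant over control (± SE, edgeR, 4 kidneys per group) for the 36 tested genes of the wider nuclease list, grouped by role. Red marks the 3 genes whose groups do not overlap (*Actb* above 0, and *Rnase1* and *Slc29a2* below 0), none of which passed an FDR of 0.05. Among all genes tested 4.03% did not overlap.

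Pancreas is rich in RNase 1, so acinar markers were read in the same kidneys. Of 8 acinar markers *Prss2*, *Cela2a*, *Pnlip* and *Amy2a5* were at 0 in every kidney, *Cpa1*, *Cpb1* and *Ctrb1* were at most 0.178 CPM, and *Cela1* alone carried the sum of 59.8 to 79.3 CPM in controls and 62.2 to 80.4 CPM in mutants. Adipocyte markers summed to 22.3, 29.9, 219 and 67.1 CPM in controls 1 to 4 and to 166 to 262 CPM in mutants, so that 3 of the 4 controls were below every mutant and control 3 was within the mutant range. The 6 kidneys with Y-linked reads keep only controls 1 and 2, so among them the groups did not overlap in this sum. Controls 1 to 4 had 594, 553, 703 and 351 CPM of *Dnase1* and 43.5, 51.9, 59.4 and 57.8 CPM of *Rnase4*. For *Ang* they had 6.60, 9.19, 7.04 and 6.74 CPM. *Rnase4* ranked the controls, but not the mutants, in the order of the adipocyte sum. *Dnase1* ranked the mutants, but not the controls, in that order, and *Ang* ranked neither group so. Erythroid markers summed to 702 to 1233 CPM in controls and to 2967, 731, 878 and 2594 CPM in mutants 1 to 4. The part of either marker group in the differences of *Dnase1*, *Rnase4* and *Ang* was not tested. Macrophage markers, summed, were at 129 to 173 and 126 to 190 CPM, and endothelial markers at 167 to 252 and 164 to 232 CPM.

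Among all genes tested, 2.39% were lower in mutants without overlap. Of the 8 genes marking the proximal tubule, the segment that makes up most of the cortex, 1 was lower in this way. That gene, the glucose transporter *Slc5a2*, was at 454 to 555 CPM in controls and 315 to 321 CPM in mutants (log2 difference -0.67, edgeR FDR 0.0697, and -0.66 over the 6 kidneys). Its part in the *Dnase1* difference was not tested. *Hnf4a*, a tubule gene of the HNF4 family, was at 496 to 685 CPM in controls and 479 to 679 CPM in mutants, with overlap. *Atp6v1g3*, 1 of the 5 collecting duct markers, was also lower in mutants without overlap. It was at 23.3 to 31.4 CPM in controls and 21.2 to 22.7 CPM in mutants. The markers of the loop of Henle and distal tubule and of the podocyte all overlapped.

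The genes whose log2 CPM was most like that of *Dnase1* were sought among 14128 genes of at least 1 CPM. Over the 8 kidneys they were *Mrpl1* (Pearson r = 0.984), *Snrnp27* (0.967), *Pdilt* (0.966), *Ndufb10* (0.966) and *Mthfs* (0.943), given as a description without a test, since the points fall into the 2 genotypes. *Mrpl1*, a mitochondrial ribosomal protein gene, followed *Dnase1* in order but over a far narrower range, 20.3 to 22.3 CPM in controls and 16.9 to 19.2 CPM in mutants. On deviations from the group means the highest were *Mrpl1* (0.979), *Dap3* (0.972), *Gm10277* (0.971), *Snrnp27* (0.965) and *Anks3* (0.957). This list too is a description without a test, being the highest of 14128 genes over only 8 kidneys.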

How the data were processed

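Whole-kidney RNA of 8 mice, 4 per genotype, was sequenced on a BGISEQ500 instrument. The submitters' processing notes name STAR 2.7.2b, RSEM 1.3.0, DESeq2, FastQC and the build mm10, and the use of strand is not given in the sources used here. For each kidney the authors deposited RSEM's expected counts, estimated reads per gene without normalisation. The TPM values deposited by the authors are the same estimates scaled by gene length and library total, and the deposited files also hold weighted transcript lengths and posterior SDs of the counts. Symbols and coordinates came from GENCODE M21 (GRCm38), which held 55141 of the 55401 gene IDs with versions removed.

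Counts were rounded and fitted with edgeR 4.0.16 in R 4.3.3 (TMM, filterByExpr, quasi-likelihood F test, Benjamini-Hochberg over 14326 genes, FDR threshold 0.05), with no covariate or block. The fit was checked on simulated counts. Alternatives used DESeq2 1.42.0, limma 3.58.1 (voom, and trend on log2(TPM + 1) and log2(TPM + 0.1)), other scalings, filters, a length offset, blocks and kidneys left out. The 8 genes, the wider list and the marker lists were chosen with earlier results of these data known. Named genes were the 8, genes overlapping or flanking them, and from the wider list those with an unadjusted p under 0.05 or no overlap, plus the highest per role by mean TPM. Of 63 genes kept for that list 62 were matched, and 1 further gene is not reported here. None of the 12 within-group pairs of kidneys was a duplicate (chi-square per degree of freedom at least 9.75). Floors cover counting error only, since reads carry no molecular identifiers.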

Additional observations from a re-analysis of the deposited data

How the results depend on the processing

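*Dnase1* (-2.23 to -1.85), *Rnase4* (0.60 to 0.85), *Ang* (0.53 to 0.79), *Rnaset2a* (-0.29 to -0.04) and *Rnaset2b* (0.02 to 0.25) kept the sign of their log2 difference in all 21 alternatives, and *Dnase1l3* (-0.92 to -0.27) in the 18 that gave it a value. *Rnase4* moved to 0.85 both with the Y-linked covariate and in the 6 kidneys with Y-linked reads. *Dnase1l1* changed sign to 0.15 in the same 2 fits. *Dnase2a*, near 0, was -0.0038 with upper-quartile factors, -0.076 with the effective-length offset, 0.18 in the 6 kidneys and -0.073 to 0.068 with 1 kidney left out, being below 0 without control 1 (-0.0031), control 2 (-0.073) or mutant 2 (-0.058). The cause was not tested. Genes past the threshold over all genes, 0 by edgeR, were 67 by DESeq2, 2 by limma-voom, 4 and 3 by limma-trend on log2(TPM + 1) and log2(TPM + 0.1), 9 with no filter, 15 with the Y-linked covariate, 21 in the 6 kidneys and 0 to 1 with 1 kidney left out. The wider list had 0 in all 21 alternatives. At an unadjusted p under 0.05 it had 3 genes, 2 with a mean of at least 50 counts, 2 with the replicate block and 2 to 5 with 1 kidney left out (5 without control 1). Same-numbered kidneys shared only a number (correlations of deviations -0.156, 0.0531, 0.0427 and -0.288), and with the replicate block *Dnase1* was at -2.10, *Rnase4* at 0.69 and *Ang* at 0.63, with 0 genes past the threshold. Depth limits *Dnase1l3*, at 3 to 17 counts per kidney.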
